A study of Mus musculus with 8 samples.

Results

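The Lin28 and let-7 axis was described here through 8 of the 24421 genes counted in both tables of the study. The genes were chosen by name: the paralogs Lin28a and Lin28b, the ubiquitin ligase gene Trim71, the chromatin gene Hmga2, the mRNA-binding genes Igf2bp1, Igf2bp2 and Igf2bp3, and the nuclease gene Dicer1. They were listed with earlier results of the same comparisons known. Each fold change below is therefore a description, and each adjusted p gives only a gene's place in the fit across all genes.

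PolyA RNA was sequenced from 8 libraries of mouse embryonic stem cells, 2 in each of 4 groups, all grown for a few passages in 2i/LIF, a medium with a pair of kinase inhibitors and a cytokine that keeps the cells in a naive pluripotent state. The v6.5 line was used for the Ubc9-depleted cells, which had doxycycline (DOX) for 72 hours and were set against Ubc9 control cells, also v6.5, both with ScriptSeq v2 libraries. Ubc9 is the enzyme that conjugates the small protein SUMO to other proteins. H1 TKO cells, a triple knockout of linker histones H1.2, H1.3 and H1.4, were set against H1 control cells, with lines taken from an earlier publication and Lexogen SENSE V2 libraries. The labels leave unsaid whether Ubc9 controls had DOX, how the depletion was built, how many H1 lines were used, or whether the 2 libraries of a group were separate cultures. The p-values then measure only the spread between these libraries, which may be technical. Because kit and line differ between the tables, levels were compared within a table.

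Lin28 proteins bind the precursor hairpins of the let-7 microRNAs, in part through a GGAG motif, and block their maturation, in part by recruiting enzymes that add uridines to the hairpin. Mature let-7 pairs through its seed with sites in 3′ UTRs and represses those mRNAs, among them Lin28a, Lin28b, Trim71, Hmga2 and the Igf2bp genes, which closes a double-negative loop. In mouse embryonic stem cells Lin28a is known for its part in the passage from naive to primed pluripotency.

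The mature sequences are shown because their seed defines the sites searched for below. RefSeq (GRCm38.p6) gave 9 let-7 family 5p names, let-7a to let-7i and miR-98, and all 9 shared 1 seed. Below, 4 are printed with the seed (bases 2 to 8) in capitals. They are chosen to show let-7a, the one with another first base, a form from a gene within Wdr82, and miR-98.
let-7a-5p: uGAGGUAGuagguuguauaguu
let-7d-5p: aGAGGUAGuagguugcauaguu
let-7g-5p: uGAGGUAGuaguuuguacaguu
miR-98-5p: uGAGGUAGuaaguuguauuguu

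Of the 12 let-7 family hairpins in RefSeq, 9 held the letters GGAG somewhere in the hairpin. Of the 288 mouse hairpins of the same length (83 to 108 bases), 44.8% held these letters, so the match by itself is common. The hairpin of Mirlet7g (chr9:106178840-106178927, plus strand) is printed as one that holds the motif, in capitals, and that of Mirlet7b (chr15:85707319-85707403, plus strand) as one that does not.
Mirlet7g: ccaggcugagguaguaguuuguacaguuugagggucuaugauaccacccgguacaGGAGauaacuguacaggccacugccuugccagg
Mirlet7b: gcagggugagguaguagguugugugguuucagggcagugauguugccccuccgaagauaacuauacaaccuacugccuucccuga

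The let-7 site was taken as the 8 letters CTACCTCA, the reverse complement of the seed followed by A. It was searched on the mRNA strand of the longest annotated 3′ UTR of each gene (GENCODE M21, GRCm38). It was present in 7 of the 8 genes: 4 copies in Trim71, 3 in Igf2bp1, 2 in Lin28a, and 1 each in Lin28b, Hmga2, Igf2bp2 and Igf2bp3. Lin28b and Hmga2 each had 3 further matches to the 7 letters CTACCTC alone, and Igf2bp1 had 1. Dicer1 had no match to either in this UTR; sites in the coding sequence, described for human DICER1, were not searched.

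Over all 20097 genes with an annotated 3′ UTR, 3.12% held at least 1 copy and 0.154% held at least 2. Among the 5691 UTRs within the range of lengths of the 8 genes (1784 to 6337 bases), the shares were 5.92% and 0.422%. The genes were listed for being known let-7 targets, so their sites restate that choice. The windows below, 30 bases each with the site in capitals, are shown for the genes that differed most between groups and for the pair of Trim71 sites that lie 26 bases apart. All are in a 3′ UTR on the minus strand of GRCm38.
Lin28a, chr4:134005187-134005216: ggagtgcacagcctgttgaaCTACCTCAtt
Lin28a, chr4:134004549-134004578: gctttgagatcgccacaaacCTACCTCAct
Lin28b, chr10:45381020-45381049: ccttcacccgggcgggaagtCTACCTCAtg
Hmga2, chr10:120364222-120364251: ggggcgccgacattcaatttCTACCTCAgc
Igf2bp3, chr6:49086785-49086814: aaacgtgcatttttactcaaCTACCTCAgg
Trim71, chr9:114509045-114509074: ttttgtttagtatggattttCTACCTCAat
Trim71, chr9:114509019-114509048: caattttggcaaaaagttgtCTACCTCAcg

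Depth was 75972231 to 88410194 counts in Ubc9-depleted libraries and 99269669 to 102780141 in Ubc9 controls, and 44441713 to 68445181 in H1 TKO libraries and 52960206 to 56032400 in H1 controls. Hist1h1c, Hist1h1d and Hist1h1e, which encode H1.2, H1.3 and H1.4, had 0 counts in both H1 TKO libraries, which allows up to 0.0685 and 0.0458 CPM (counts-per-million, TMM-scaled) each, against 100 to 231 counts in the H1 controls. The SD of the log2 ratio between the libraries of a group was 0.484 in Ubc9-depleted and 0.181 in Ubc9 control cells, and 0.273 in H1 TKO and 0.540 in H1 control cells. Ubc9-depleted library 1 stood apart, where 23462 genes had a count, against 19591 in depleted library 2 and 18584 to 18872 in the controls. For some lists, values without that library or without H1 control library 1 are also given, from a fit that leaves 1 library in a group. Pluripotency markers summed to 4630 and 4520 CPM in Ubc9-depleted cells, against 4620 and 4820 CPM in Ubc9 controls, and to 5490 and 5820 CPM in H1 TKO cells, against 4060 and 4630 CPM in H1 controls, so the labelled cell type had its markers in every group. Of 9 such markers 0 were higher and 1 was lower (11.1%) in H1 TKO cells by edgeR, where 8.59% and 8.43% of all genes were. At an unadjusted p under 0.05 edgeR had 3 higher, and DESeq2 called 1 higher. Without H1 control library 1 the median log2 fold change of these markers was 0.22, against 0.03 over all genes.

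Under edgeR's quasi-likelihood test with Benjamini-Hochberg adjustment at 0.05, 1 of the 8 genes was higher and 5 were lower in Ubc9-depleted cells. Of all 16499 genes tested there, 21.1% were higher and 15.0% lower. In H1 TKO cells 1 was higher and 4 were lower, and of all 14800 genes tested 8.59% were higher and 8.43% lower. Without Ubc9-depleted library 1 the counts were again 1 higher and 5 lower, and without H1 control library 1 they were 2 higher and 6 lower, in a fit where 23.4% of all genes were higher and 22.8% lower. Since the genes were listed with these contrasts known, nothing is read from the member counts against those shares. For all 8 genes and in both comparisons the values of the 2 groups did not overlap, which was also true of 68.9% of all genes tested between the Ubc9 groups and of 62.0% between the H1 groups. The genes that differed most were Lin28a and Hmga2 in H1 TKO cells and Lin28b in Ubc9-depleted cells.

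**Figure D1:**
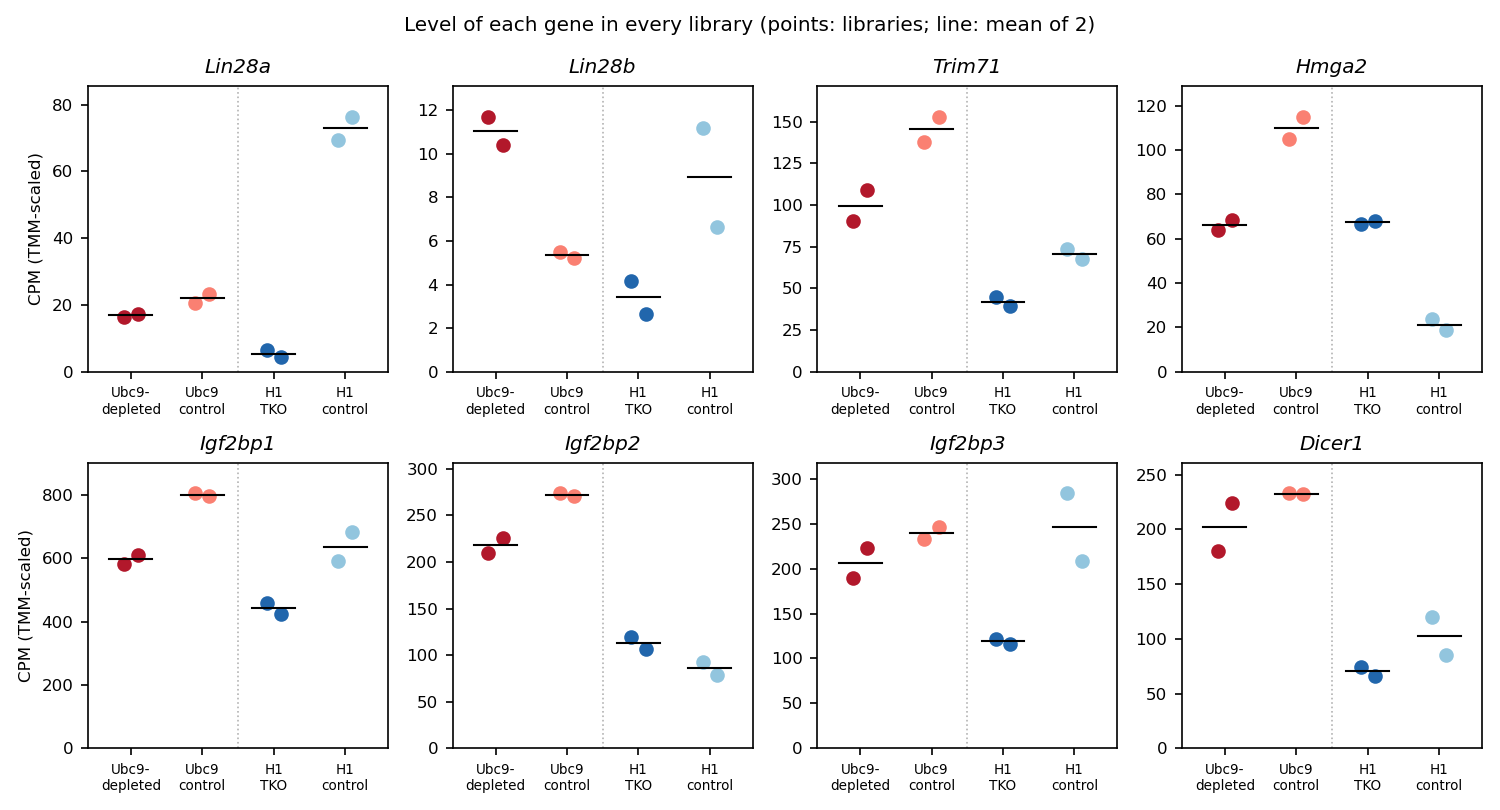
CPM (TMM-scaled, linear axis from 0) of each of the 8 genes in every library; points are libraries and lines the mean of 2, with the Ubc9 table left and the H1 table right of the dotted line, which is not to be read across. Lin28a at 6.53 and 4.35 CPM in H1 TKO cells lies far under its 69.3 and 76.4 CPM in H1 controls, while Lin28b is higher in Ubc9-depleted cells and lower in H1 TKO cells.

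Lin28a, the paralog that acts largely in the cytoplasm and recruits uridylating enzymes to the let-7 precursor, had 6.53 and 4.35 CPM in H1 TKO cells, against 69.3 and 76.4 CPM in H1 controls. Its log2 fold change was -3.75 ± 0.28 (SE), 13.4-fold lower, with an adjusted p of 5.93e-04 by edgeR. Only 16 of the 9901 genes averaging 5 CPM or more there had a lower log2 fold change. In a bulk library, fewer cells that express a gene and less of its RNA per cell cannot be told apart. Leaving out any 1 library gave -4.08 to -3.48, and every alternative kept the call.

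In Ubc9-depleted cells Lin28a had 16.4 and 17.4 CPM, against 20.6 and 23.4 CPM in Ubc9 controls. The groups did not overlap but the difference was small, at -0.38 ± 0.11 on the log2 scale (edgeR adjusted p = 0.00786). It missed the threshold with DESeq2 (adjusted p = 0.065), with library totals alone (edgeR adjusted p = 0.23), in 1 fit of all 8 libraries (0.203) and without Ubc9 control replicate 2 (0.234).

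Lin28b, the paralog that also acts in the nucleus, had 11.7 and 10.4 CPM in Ubc9-depleted cells, against 5.49 and 5.23 CPM in Ubc9 controls. Both depleted libraries stood above both controls, by 1.04 ± 0.14 on the log2 scale or 2.06-fold (edgeR adjusted p = 9.85e-07), and 330 of the 10058 genes with at least 5 CPM had a higher log2 fold change. Every alternative kept this call, between 0.95 and 1.24. It was the only one of the 8 genes that was higher in Ubc9-depleted cells.

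For H1 TKO cells the Lin28b values were 4.15 and 2.67 CPM, against 11.2 and 6.65 CPM in H1 controls. All 4 values were low and the controls were far apart. The log2 fold change of -1.39 ± 0.37 was close to the threshold (edgeR adjusted p = 0.0419). It was -1.77 without H1 TKO replicate 1, -0.97 without H1 control replicate 1 and -1.11, no longer past the threshold, without H1 TKO replicate 2 (edgeR adjusted p = 0.284).

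Per kilobase of exon, the ratio of Lin28a to Lin28b was 2.16 and 2.58 in Ubc9-depleted libraries, against 5.77 and 6.90 in Ubc9 controls. It was 2.42 and 2.51 in H1 TKO libraries, against 9.52 and 17.7 in H1 controls. Within each table the perturbed libraries thus had a lower ratio than both controls. The sum of both levels was 6.85 and 6.87 CPM per kb in Ubc9-depleted cells, against 6.88 and 7.64 in Ubc9 controls, and 2.63 and 1.73 in H1 TKO cells, against 21.8 and 23.0 in H1 controls.

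**Figure D2:**
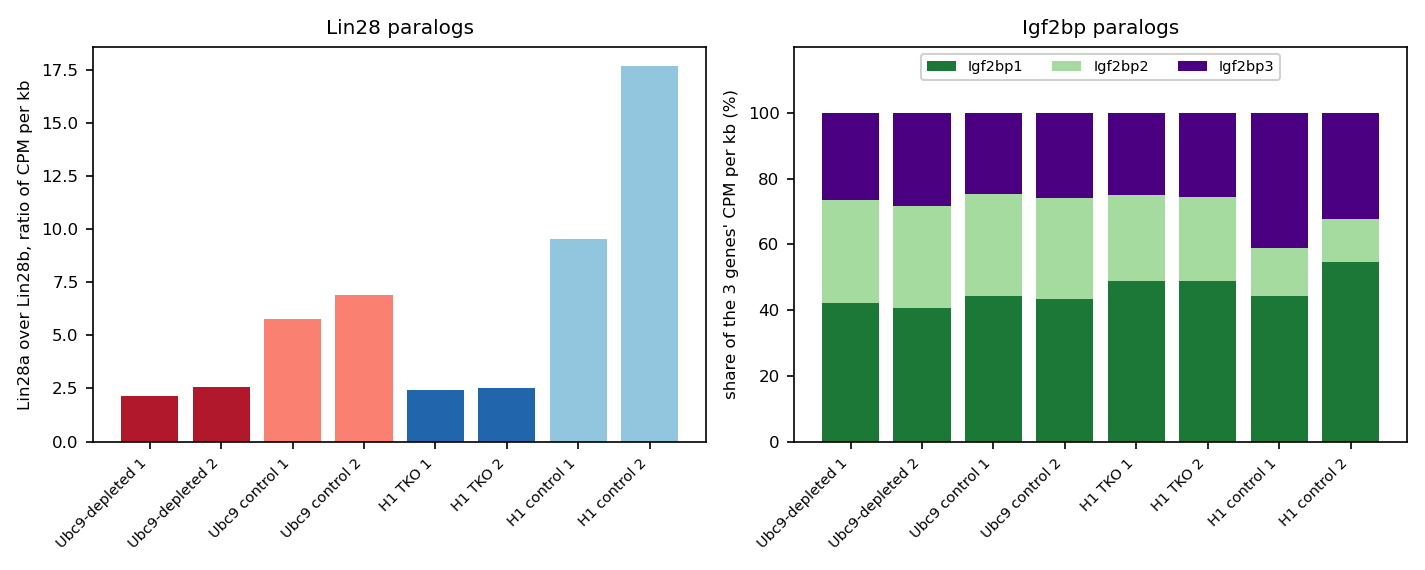
Left, the ratio of Lin28a to Lin28b (CPM per kb of exon) in each library; right, the share of Igf2bp1, Igf2bp2 and Igf2bp3 in their summed CPM per kb in each library, with no error bars because each bar is 1 library. The Lin28 ratio is 2.16 and 2.58 in Ubc9-depleted libraries, against 5.77 and 6.90 in Ubc9 controls, and 2.42 and 2.51 in H1 TKO libraries, against 9.52 and 17.7 in H1 controls, and Igf2bp2 takes 26.2% and 25.5% in H1 TKO libraries, against 14.5% and 13.0% in H1 controls.

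Trim71, a ubiquitin ligase and RNA-binding protein whose worm ortholog lin-41 is a classical let-7 target, was lower in both comparisons. It had 90.2 and 109 CPM in Ubc9-depleted cells, against 138 and 153 CPM in Ubc9 controls. The log2 fold change was -0.54 ± 0.13 (edgeR adjusted p = 0.00131), with no overlap between groups. It had 44.6 and 39.5 CPM in H1 TKO cells, against 73.6 and 67.9 CPM in H1 controls. The log2 fold change was -0.75 ± 0.20 (edgeR adjusted p = 0.042), again with no overlap. The Ubc9 call was lost in 1 fit of all 8 libraries (edgeR adjusted p = 0.0665) and without either Ubc9 control replicate (0.0529 without replicate 1 and 0.191 without replicate 2). The H1 call was lost without either H1 TKO replicate (edgeR adjusted p = 0.438 and 0.645), and both directions were kept.

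Hmga2, an architectural chromatin protein with AT-hook domains, moved in opposite directions. It had 66.8 and 68.0 CPM in H1 TKO cells, against 23.6 and 18.9 CPM in H1 controls, a log2 fold change of 1.66 ± 0.22 or 3.17-fold (edgeR adjusted p = 0.00314). Of the genes with at least 5 CPM, 260 had a higher log2 fold change. In Ubc9-depleted cells it had 63.8 and 68.3 CPM, against 105 and 115 CPM in Ubc9 controls, a log2 fold change of -0.73 ± 0.12 (edgeR adjusted p = 1.54e-05). Hmga2 was the only one of the 8 genes called higher in H1 TKO cells, and both of its calls were kept under every alternative except the 2-fold threshold, which its Ubc9 value does not reach.

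The 3 Igf2bp genes encode RNA-binding proteins that bind and stabilise mRNAs, and by mean CPM per kb they were the most abundant of the 8 genes in each group. Igf2bp1 had 582 and 611 CPM in Ubc9-depleted cells, against 805 and 796 CPM in Ubc9 controls, with a log2 fold change of -0.43 ± 0.13 (edgeR adjusted p = 0.0111). That call was lost with no filter (edgeR adjusted p = 0.0698), in 1 fit of all 8 libraries (0.102) and without Ubc9 control replicate 1 (0.531) or 2 (0.542). It had 458 and 425 CPM in H1 TKO cells, against 590 and 681 CPM in H1 controls, with -0.52 ± 0.19 (edgeR adjusted p = 0.101). Both TKO libraries lay under both controls, but the difference did not pass the threshold; it did with library totals alone (edgeR adjusted p = 0.0485), in 1 fit of all 8 libraries (0.0325) and without either H1 control replicate (1.31e-08 and 9.02e-04).

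Igf2bp2 had 210 and 226 CPM in Ubc9-depleted cells, against 274 and 271 CPM in Ubc9 controls, with a log2 fold change of -0.32 ± 0.13 (edgeR adjusted p = 0.044). That call was lost with RLE factors (edgeR adjusted p = 0.0611), library totals alone (0.179), no filter (0.0914), 1 fit of all 8 libraries (0.217) and without either Ubc9 control replicate (0.54 and 0.549). In H1 TKO cells it had 119 and 107 CPM, against 93.0 and 78.5 CPM in H1 controls, with 0.40 ± 0.20 (edgeR adjusted p = 0.21). It lay higher in both TKO libraries without passing the test, and passed without H1 control replicate 1 (0.53, edgeR adjusted p = 1.64e-05) or 2 (0.28, 0.0376).

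Igf2bp3 had 190 and 223 CPM in Ubc9-depleted cells, against 233 and 246 CPM in Ubc9 controls, with a log2 fold change of -0.21 ± 0.13 that did not pass (edgeR adjusted p = 0.196) except without Ubc9-depleted replicate 2 (-0.41, 0.00245). Its values were 122 and 116 CPM in H1 TKO cells, against 284 and 209 CPM in H1 controls. That was 2.07-fold lower, or -1.05 ± 0.21 on the log2 scale (edgeR adjusted p = 0.017), and the call was lost without either H1 TKO replicate (edgeR adjusted p = 0.194 and 0.279). The last exon of Igf2bp3 shares 1529 bases with Malsu1 on the other strand, and whether counting used strand is not given in the sources used here. Malsu1 had 74.6 and 83.8 CPM in H1 TKO cells, against 47.6 and 61.3 CPM in H1 controls; its part in the Igf2bp3 value was not tested. Shorter antisense overlaps of 43 to 234 bases exist for Lin28a, Trim71, Hmga2 and Igf2bp1.

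Within the Igf2bp family, the balance in CPM per kb differed between the H1 groups more than between the Ubc9 groups; this was not tested. Igf2bp1, Igf2bp2 and Igf2bp3 took 48.8%, 26.2% and 25.0% in H1 TKO library 1 and 48.8%, 25.5% and 25.7% in library 2. In the H1 controls they took 44.3%, 14.5% and 41.2% in library 1 and 54.6%, 13.0% and 32.3% in library 2. The share of Igf2bp2 was 31.0% to 31.4% in Ubc9-depleted cells and 30.7% to 31.1% in Ubc9 controls. The summed level of the family was lower in both perturbed groups, at 165 and 180 CPM per kb in Ubc9-depleted cells, against 217 and 219 in Ubc9 controls, and at 112 and 104 in H1 TKO cells, against 159 and 149 in H1 controls.

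Dicer1, the nuclease that cuts microRNA hairpins into their mature form, was not called in either comparison. It had 180 and 224 CPM in Ubc9-depleted cells, against 233 and 232 CPM in Ubc9 controls (-0.20 ± 0.13, edgeR adjusted p = 0.233). It had 74.5 and 66.2 CPM in H1 TKO cells, against 120 and 85.4 CPM in H1 controls (-0.55 ± 0.23, edgeR adjusted p = 0.15). It lay under both controls in all perturbed libraries without passing the threshold. It passed without Ubc9-depleted replicate 2 (-0.45, edgeR adjusted p = 0.00121), and without H1 control replicate 1 (-0.28, 0.0346) or 2 (-0.78, 1.3e-06).

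**Figure D3:**
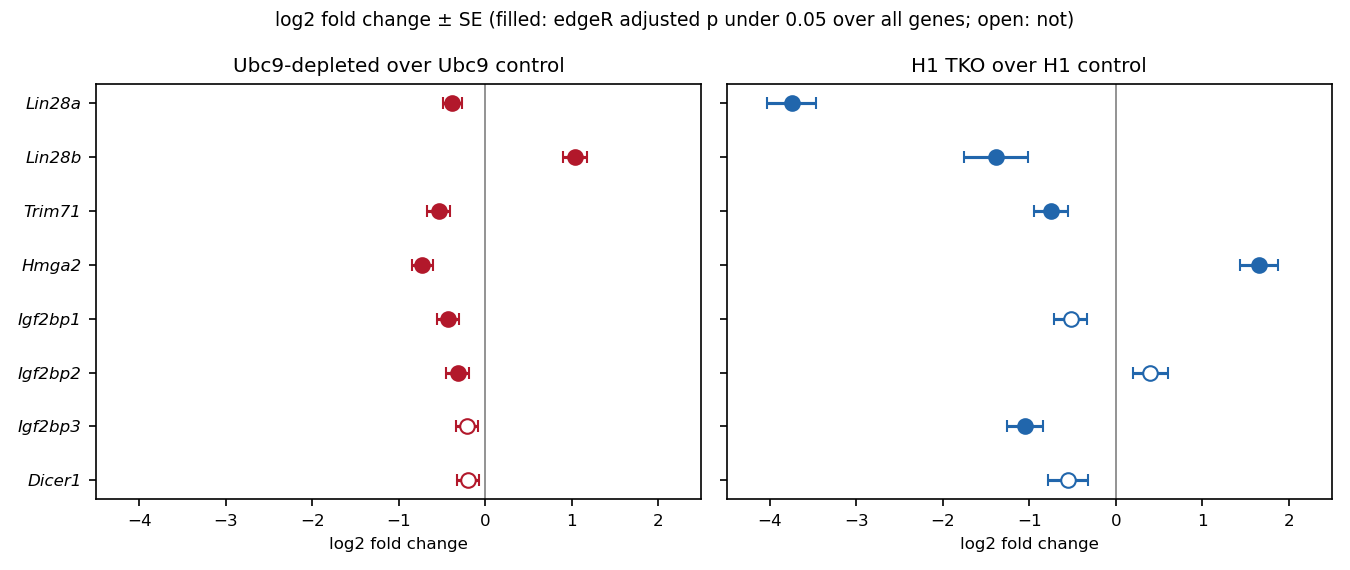
log2 fold change (x axis) with its standard error for the 8 genes, Ubc9-depleted over Ubc9 control at left and H1 TKO over H1 control at right; filled points have an edgeR adjusted p under 0.05 over all genes and open points do not. Lin28b and Hmga2 lie on opposite sides of 0 in the 2 panels, and Lin28a in H1 TKO cells is the farthest from 0 at -3.75.

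Calls that differ between comparisons were tested directly, as the Ubc9 effect minus the H1 effect in 1 fit of all 8 libraries. Of the 8 genes, 2 were higher and 1 was lower in this contrast, where 8.08% of all 16974 genes tested were higher and 6.43% lower. Lin28a differed by 3.35 ± 0.28 on the log2 scale (edgeR adjusted p = 5.47e-05), the fall being larger in H1 TKO cells. Lin28b differed by 2.44 ± 0.41 (edgeR adjusted p = 0.00287) and Hmga2 by -2.41 ± 0.24 (edgeR adjusted p = 1.66e-04), both with effects of opposite sign. These 3 genes were called under each alternative run for this contrast, which left out DESeq2 and the 2-fold threshold. Trim71, with 0.19 (edgeR adjusted p = 0.633), Igf2bp1, with 0.08 (0.852), and Dicer1, with 0.34 (0.477), were not shown to differ between the comparisons. Igf2bp2, with -0.74 (edgeR adjusted p = 0.0615), and Igf2bp3, with 0.83 (0.0684), lay near the threshold. Without H1 control replicate 2, Igf2bp2, Igf2bp3 and Dicer1 passed it (edgeR adjusted p = 0.0223, 2.45e-05 and 0.0359), as did Igf2bp2 without H1 control replicate 1 (4.02e-04). The kit and the line differ between the tables and cannot be told apart from the perturbation in this contrast.

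Ordered by mean CPM per kb, Igf2bp1 was first and Lin28b last of the 8 genes in every group. Igf2bp1 had 71.2 ± 2.42 in Ubc9-depleted cells and 95.6 ± 0.786 in Ubc9 controls (SD, n = 2 each). Lin28b averaged 2.04 in Ubc9-depleted cells and 0.991 in Ubc9 controls. Lin28a held rank 7 in Ubc9-depleted cells (4.82), Ubc9 controls (6.27) and H1 TKO cells (1.55), and rank 4 in H1 controls (20.8). Hmga2 held rank 4 in H1 TKO cells (17.7) and rank 7 in H1 controls (5.58). The only neighbours in this order whose 2 libraries overlapped were Igf2bp2 and Igf2bp3 in H1 TKO cells, and Igf2bp2 and Lin28a in H1 controls.

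Across the 8 libraries, with log2 CPM centred within each table, the Pearson correlation between Lin28a and Igf2bp3 was 0.936, and between Hmga2 and Igf2bp2 0.923. Trim71 had 0.938 with Igf2bp1, and Lin28a had -0.858 with Hmga2. These values are descriptions, because libraries of a group share their condition. Centring within each table leaves the Ubc9 and H1 contrasts of the 4 groups behind them, along with the differences between libraries of a group. Of 9205 other genes, those with the most similar pattern to Lin28a were Bola3, an iron-sulphur cluster assembly gene, and Polr3gl, a subunit of RNA polymerase III, both with r = 0.996. Polr3gl had a log2 fold change of -3.27 and Bola3 of -1.40 in H1 TKO cells. In Ubc9-depleted cells Polr3gl had -0.26 and Bola3 -0.03, neither of them called, against -0.38 for Lin28a.

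For Lin28b the most similar genes were Pls1, an actin bundler (r = 0.994), and Epha7, an ephrin receptor (0.989). Pls1 had a log2 fold change of 1.34 in Ubc9-depleted cells and -1.37 in H1 TKO cells. These genes were chosen by correlation over the same libraries, so signs shared with a gene of the axis restate that choice. For Hmga2 they were Nid1, a basement membrane glycoprotein (0.997), and Slc16a9, of the monocarboxylate transporter family (0.994). Slc16a9 had -0.82 in Ubc9-depleted cells and 2.28 in H1 TKO cells. For Trim71 they were Dlc1, a GTPase-activating protein (0.996), and Spats2 (0.991). For Igf2bp1 they were Cers5, a ceramide synthase, and Dnmbp, a guanine nucleotide exchange factor (both 0.997), for Igf2bp2 Ahnak, a large scaffold protein (0.992), and Galk2 (0.989), for Igf2bp3 Mtus1 and the efflux transporter gene Abcg2 (both 0.998), and for Dicer1 Ube2b, a ubiquitin-conjugating enzyme, and Cep120, a centriole gene (both 0.989).

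The let-7 RNAs themselves were not measured by these polyA libraries. Of the 12 let-7 family genes in the tables, the highest count in any library was 37, for Mirlet7i in Ubc9-depleted library 1, and in the H1 libraries it was 14, for Mirlet7d in control library 1. Huwe1, the host gene of Mir98 and Mirlet7f-2, had 858 and 1060 CPM in Ubc9-depleted cells, against 1060 and 968 CPM in Ubc9 controls, and 717 and 692 CPM in H1 TKO cells, against 845 and 721 CPM in H1 controls. Wdr82, within which Mirlet7g lies, had 127 and 132 CPM in Ubc9-depleted cells, against 151 and 167 CPM in Ubc9 controls, and 157 and 160 CPM in H1 TKO cells, against 184 and 177 CPM in H1 controls. Of the host and let-7 genes, 4 were tested between the Ubc9 groups and 2 between the H1 groups, and edgeR called 0. The shares edgeR called over all genes were 21.1% higher and 15.0% lower for Ubc9 depletion, and 8.59% and 8.43% for the H1 TKO. With so few genes tested, 0 calls does not show that they were unchanged. At an unadjusted p under 0.05 edgeR had 1 of the host and let-7 genes lower in Ubc9-depleted cells and 0 in H1 TKO cells, as did DESeq2 after adjustment.

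Among 22 genes of let-7 processing and Lin28 cofactors, all tested, 1 was higher and 9 were lower in Ubc9-depleted cells, with a median log2 fold change of -0.23, against 0.06 over all genes and shares of 21.1% higher and 15.0% lower. The largest falls were those of Ago1, which carries mature microRNAs, at 108 and 130 CPM in Ubc9-depleted cells, against 207 and 213 CPM in Ubc9 controls (-0.82, edgeR adjusted p = 9.55e-06), of Hnrnpa1, an RNA-binding protein known to act on let-7a in human cells (-0.70, 2.23e-05), and of Dgcr8, the partner of Drosha (-0.60, 2.68e-04). Prkra, a Dicer1 partner, was higher (0.55, edgeR adjusted p = 0.0267). The counts were the same without Ubc9-depleted library 1. The uridylating enzymes Zcchc11 (Tut4) and Zcchc6 (Tut7), with log2 fold changes of -0.10 and -0.13 in Ubc9-depleted cells, and the exonuclease gene Dis3l2, with 0.18, did not pass the test; they were singled out for their known role after their values were seen.

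The H1 comparison called 0 genes of that list higher and 2 lower (9.09%), where 8.59% and 8.43% of all genes were. Their median was -0.08, against -0.02 over all genes. At an unadjusted p under 0.05 edgeR had 1 higher, and DESeq2 called 1 higher after adjustment. Msi1, an RNA-binding protein reported to act with Lin28 on let-7 precursors, had 2.76 and 3.89 CPM in H1 TKO cells, against 14.7 and 22.2 CPM in H1 controls (-2.47, edgeR adjusted p = 0.00311). Ago1 had 79.8 and 78.3 CPM in H1 TKO cells, against 127 and 125 CPM in H1 controls (-0.68, edgeR adjusted p = 0.0446), and Msi1 was also lower in Ubc9-depleted cells (-0.35, edgeR adjusted p = 0.0141), so that both genes called lower in H1 TKO cells were lower in the other comparison too. Without H1 control library 1, 5 were higher and 5 were lower, where 23.4% and 22.8% of all genes were.

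Of 39 other known let-7 targets, 38 were tested. In Ubc9-depleted cells 7 were higher (18.4%) and 10 were lower (26.3%), with a median of -0.04, where 21.1% and 15.0% of all genes were and their median was 0.06. Bach1, a transcription factor of the haem response, had 84.6 and 90.2 CPM in Ubc9-depleted cells, against 168 and 188 CPM in Ubc9 controls (-1.03, edgeR adjusted p = 1.28e-07). Arid3a, a DNA-binding protein (-0.94, edgeR adjusted p = 7.02e-08), and Cdc25a, a cell cycle phosphatase (-0.85, 1.87e-06), also fell. Among those that rose, the cyclin gene Ccnd2 had 3.58 and 2.41 CPM in Ubc9-depleted cells, against 0.401 and 0.608 CPM in Ubc9 controls, and Thbs1, an extracellular matrix gene, had 7.95 and 5.45 CPM, against 1.70 and 1.67 CPM. Fras1 had 6.03 CPM in depleted library 1 and 0.471 in library 2, against 0.0823 and 0.109 in Ubc9 controls, so its level rests on library 1. Without that library 6 were higher and 12 lower (15.8% and 31.6%), in a fit where 3128 of all 16454 genes were higher and 2519 (15.3%) lower.

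In H1 TKO cells 1 of the 38 was higher (2.63%) and 4 were lower (10.5%), with a median of -0.35, where 8.59% and 8.43% of all genes were and their median was -0.02. Dna2, a nuclease and helicase of replication, had 44.6 and 39.9 CPM in H1 TKO cells, against 115 and 82.6 CPM in H1 controls (-1.23, edgeR adjusted p = 0.0131). Thbs1 was higher at 2.56 and 3.00 CPM in H1 TKO cells, against 0.985 and 0.951 CPM in H1 controls (1.52, edgeR adjusted p = 0.0407). Without H1 control library 1, 5 were higher and 14 were lower (13.2% and 36.8%) with a median of -0.15, against 23.4% and 22.8% of all genes.

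**Figure D4:**
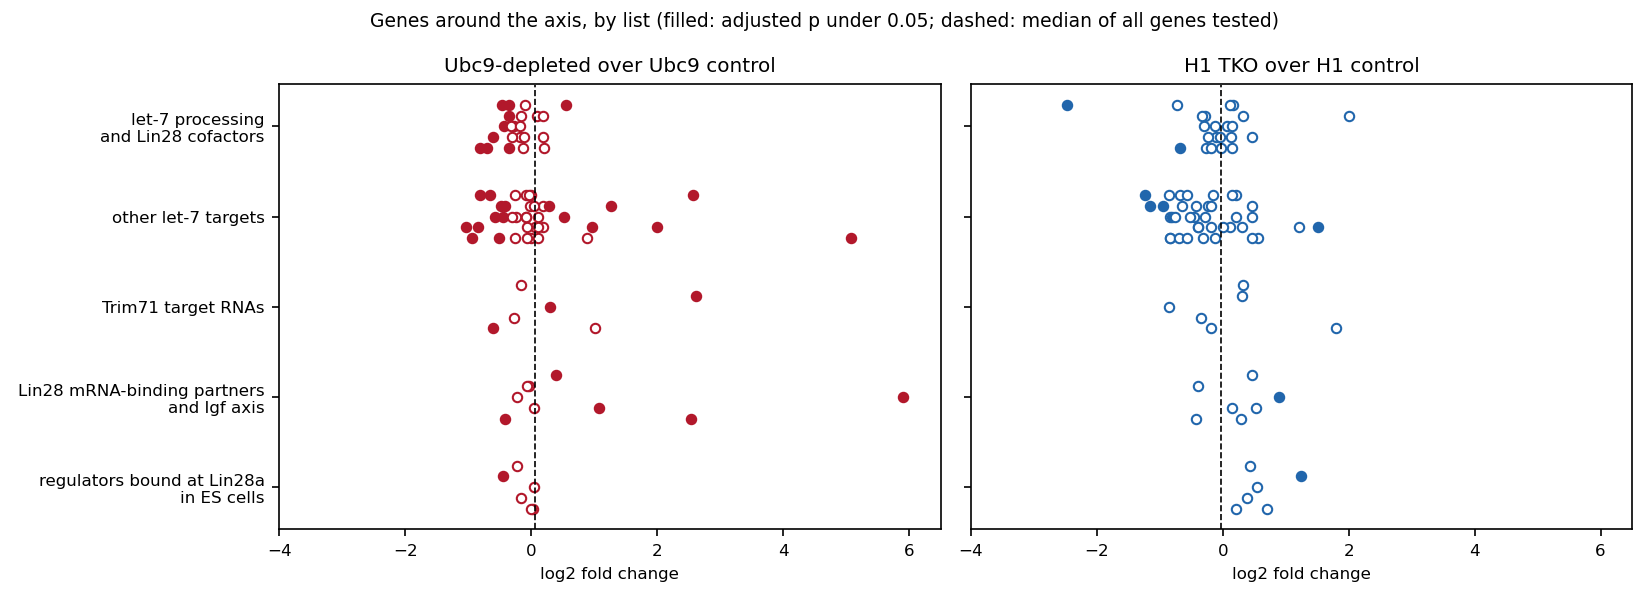
log2 fold change (x axis) of the tested genes of 5 lists around the axis, Ubc9-depleted over Ubc9 control at left and H1 TKO over H1 control at right; filled points have an edgeR adjusted p under 0.05, the dashed line is the median of all genes tested, and H19 in the H1 panel, with 0 counts in both controls, is left out. In the let-7 processing list, 9 of 22 points (40.9%) are filled and left of the line in the Ubc9 panel. Of all genes tested there, 15.0% were called lower. In the H1 panel 2 of 22 (9.09%) are, where 8.43% of all genes were called lower. The counts of the 2 panels were not tested against each other.

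Of 6 RNAs known as Trim71 targets, 2 were higher (33.3%) and 1 was lower (16.7%) in Ubc9-depleted cells, where 21.1% and 15.0% of all genes were. In H1 TKO cells 0 were called by edgeR or DESeq2. There edgeR called 8.59% of all genes higher and 8.43% lower. At an unadjusted p under 0.05 edgeR had 1 of the targets lower in H1 TKO cells. Without H1 control library 1, the median log2 fold change of the targets in H1 TKO cells was -0.12, against 0.03 over all genes. Egr1, an immediate early transcription factor, had 4.39 and 2.12 CPM in Ubc9-depleted cells, against 0.535 and 0.532 CPM in Ubc9 controls (2.61, edgeR adjusted p = 5.17e-05). Rbl2, a retinoblastoma family member, rose by 0.30 (edgeR adjusted p = 0.0329). Cdkn1a, the cell cycle inhibitor p21, had 74.5 and 79.8 CPM in Ubc9-depleted cells, against 116 and 119 CPM in Ubc9 controls (-0.61, edgeR adjusted p = 1.88e-04).

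Of 9 genes of the insulin-like growth factor axis and Lin28 mRNA-binding partners, 4 were higher (44.4%) and 1 was lower (11.1%) in Ubc9-depleted cells. Of all genes tested there, 21.1% were higher and 15.0% lower. Igf2, the growth factor mRNA that gives the Igf2bp family its name, had 7.53 and 6.84 CPM in Ubc9-depleted cells, against 1.17 and 1.31 CPM in Ubc9 controls (2.53, edgeR adjusted p = 1.81e-09). H19, the imprinted noncoding neighbour of Igf2, had 4.86 and 3.12 CPM in Ubc9-depleted cells, against 2.04 and 1.77 CPM in Ubc9 controls. Igf1 had 3.78 CPM in depleted library 1 and 0.157 in library 2, against 0.0309 and 0.0326 in Ubc9 controls. Without depleted library 1 the median log2 fold change of the 9 genes was 0.13, against -0.01 over all genes. The lower gene was Dhx9, an RNA helicase (-0.42, edgeR adjusted p = 0.0132).

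Of the 8 such genes tested in H1 TKO cells, 2 were higher (25%) and 0 were lower by edgeR, where 8.59% and 8.43% of all genes were. At an unadjusted p under 0.05 edgeR had 1 lower, and DESeq2 called 0 lower. Without H1 control library 1, the median log2 fold change of the 8 was 0.4, against 0.03 over all genes. H19 had 4.27 and 4.90 CPM in H1 TKO cells and 0 counts in both H1 controls, at least 174-fold higher against a floor of 3 counts over the group. Igf2r, the receptor that clears Igf2, had 76.0 and 66.1 CPM in H1 TKO cells, against 41.8 and 35.1 CPM in H1 controls (0.89, edgeR adjusted p = 0.0294). H19 was thus higher in both comparisons.

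Of 6 transcription factors known to bind at Lin28a in embryonic stem cells, Tcf7l1, a transcriptional repressor in the Wnt pathway, was called in both comparisons. It had 110 and 134 CPM in Ubc9-depleted cells, against 160 and 175 CPM in Ubc9 controls (-0.45, edgeR adjusted p = 0.00639), and 87.4 and 79.2 CPM in H1 TKO cells, against 23.8 and 46.7 CPM in H1 controls (1.24, edgeR adjusted p = 0.0394). Pou5f1 and Nanog, core pluripotency factors, had log2 fold changes of 0.70 and 0.55 in H1 TKO cells (edgeR adjusted p = 0.0733 and 0.0921). Of the 6 factors, 1 was higher in H1 TKO cells, where 8.59% of all genes were, and without H1 control library 1, 5 were, where 23.4% of all genes were.

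Genes with at least 2 copies of the 8-letter site, whatever their known role, numbered 31, of which 28 were tested between the Ubc9 groups and 27 between the H1 groups. Between the H1 groups 2 were higher in TKO cells (7.41%) and 8 lower (29.6%), where 8.59% and 8.43% of all genes were. Their median log2 fold change was -0.36, against -0.02 over all genes. Without the genes of the axis, 6 of 24 were lower (25.0%) with a median of -0.12. With at least 1 site, 12.1% were lower, against 8.53% of the genes with no site, sets that were not matched for length of the 3′ UTR. In Ubc9-depleted cells 7 were higher (25.0%) and 6 were lower (21.4%), with a median of -0.01, where 21.1% and 15.0% of all genes were. Without the genes of the axis, 7 of 25 were higher (28.0%) and 3 lower there, with a median of 0.11. Without Ubc9-depleted library 1, the median of the 28 was -0.13, against -0.01 over all genes. Without H1 control library 1, 4 of 27 were higher and 11 lower (40.7%), and 24.9% of the genes with at least 1 site were lower, where 22.8% of all genes were. The list is small, and the counts are a description.

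The 7 genes with at least 3 copies were picked out after their values were seen. Of the 7, among them Trim71 and Igf2bp1 of the axis, 5 were lower in H1 TKO cells, where 8.43% of all genes were. In Ubc9-depleted cells Fign and Nr6a1 were called higher (log2 fold changes of 1.96 and 0.52), and Trim71 and Igf2bp1 lower (-0.54 and -0.43). Mcf2l, a guanine nucleotide exchange factor gene with 7 copies, had 0.297 and 0.229 CPM in H1 TKO cells, against 5.12 and 6.23 CPM in H1 controls (-4.44, edgeR adjusted p = 0.00105). Trim6, a ubiquitin ligase gene with 5 copies, had 110 and 118 CPM in H1 TKO cells, against 299 and 236 CPM in H1 controls (-1.23, edgeR adjusted p = 0.0078). The copies in these 2 genes are clustered: the gaps are 26 to 56 bases in Mcf2l, and each is 45 bases in Trim6.

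Fignl2, a fidgetin-like gene with 3 copies, had 0.320 and 0.732 CPM in H1 TKO cells, against 2.97 and 3.57 CPM in H1 controls (-2.60, edgeR adjusted p = 0.0148). Nr6a1, an orphan nuclear receptor gene that represses Pou5f1, had 74.9 and 77.7 CPM in H1 TKO cells, against 136 and 129 CPM in H1 controls (-0.80, edgeR adjusted p = 0.0273). In Ubc9-depleted cells Nr6a1 was higher, at 83.0 and 90.0 CPM, against 58.7 and 61.7 CPM in Ubc9 controls (0.52, edgeR adjusted p = 7.94e-04). Trim71 was the fifth gene lower in H1 TKO cells, while Igf2bp1 and Fign did not pass.

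**Figure D5:**
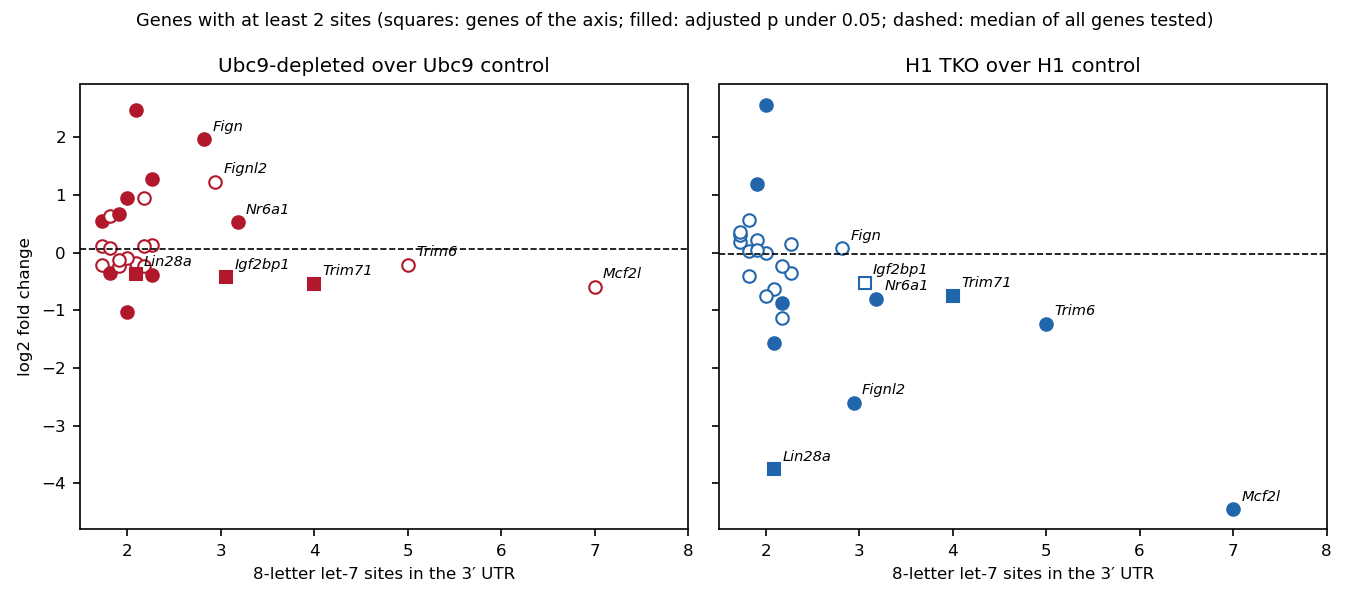
log2 fold change (y axis) of the tested genes with at least 2 copies of the 8-letter let-7 site in the 3′ UTR, by number of copies (x axis, points spread sideways within 2 and 3), Ubc9-depleted over Ubc9 control at left and H1 TKO over H1 control at right; squares are genes of the axis, filled points have an edgeR adjusted p under 0.05 and the dashed line is the median of all genes tested. In the H1 panel, 5 of the 7 genes with at least 3 copies are filled and under the line. Of all genes tested there, 8.43% were called lower. These 7 were picked out after their values were seen. In the Ubc9 panel Fign and Nr6a1 are filled and over the line, and Trim71 and Igf2bp1 are filled and under it.

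In each comparison some markers of other cell types were called, and their part in the values above was not tested. The marker counts below stand beside shares over all genes of 21.1% higher and 15.0% lower in Ubc9-depleted cells. In H1 TKO cells those shares were 8.59% and 8.43%. Of 12 fibroblast markers, as a check for feeder cells, 10 were tested in the Ubc9 comparison and 6 of those were higher: Col1a1, Col1a2, Col3a1, Dcn, Fbln2 and Postn. Postn had 288 and 269 counts in Ubc9-depleted cells, against 96 and 100 in Ubc9 controls (1.62, edgeR adjusted p = 0.00152). Without Ubc9-depleted library 1, the median log2 fold change of the 10 was 1.24, against -0.01 over all genes. The summed level of the list, mostly Fn1, was 1770 and 2090 CPM in Ubc9-depleted cells, against 2400 and 2310 CPM in Ubc9 controls, and S100a4 had 28 and 0 counts in Ubc9-depleted cells, against 1 and 0 in Ubc9 controls. In the H1 libraries 2 of 5 tested markers were lower, Fbln2 (-2.26) and Pdgfrb (-2.06). Thy1 (1.78), Col1a1 (-0.96) and Fn1 (-0.06) were not called. Postn and S100a4 were at 0 in all 4 libraries, while Fn1 averaged 1080 CPM in H1 TKO cells and 1130 CPM in H1 controls.

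Genes of the 2-cell stage were higher in 7 of 7 tested in Ubc9-depleted cells (sum of 341 and 386 CPM, against 16.1 and 14.6 CPM in Ubc9 controls) and in 6 of 7 in H1 TKO cells (79.6 and 82.4 CPM, against 6.44 and 3.38 CPM in H1 controls). Trophectoderm markers were lower in 3 of 5 tested in Ubc9-depleted cells (Cdx2 with -0.99, Gata3 with -0.67 and Eomes with -0.45; sum of 21.5 and 17.9 CPM, against 23.7 and 24.4 CPM in Ubc9 controls), of which DESeq2 called 1. They were higher in 3 of 5 tested in H1 TKO cells (Krt18 with 3.51, Krt8 with 1.68 and Eomes with 1.15). The sum of the list was 169 and 175 CPM in H1 TKO cells, against 39.1 and 46.6 CPM in H1 controls. Gata3 with 1.64 and Cdx2 with -1.03 (0.537 CPM in H1 TKO cells, against 1.10 CPM in H1 controls) were not called. Elf5 had 0 or 1 count in each H1 library. Formative and primed markers were mixed, with 3 of 7 higher and 2 lower in Ubc9-depleted cells and 1 of 7 higher and 2 lower in H1 TKO cells. Neuroectoderm markers were higher in 1 (20%) and lower in 1 (20%) of 5 tested in Ubc9-depleted cells, where 21.1% and 15.0% of all genes were. In H1 TKO cells 1 of 5 was lower. Primitive endoderm markers were higher in 3 and lower in 1 of 6 in Ubc9-depleted cells. None of 5 passed in H1 TKO cells by edgeR, with 2 lower at an unadjusted p under 0.05 and 1 lower by DESeq2. Mesendoderm markers were higher in 1 and lower in 3 of 5 in Ubc9-depleted cells and higher in 1 and lower in 1 of 4 in H1 TKO cells. Without Ubc9-depleted library 1, the median log2 fold change was 0.8 for primitive endoderm and -0.64 for mesendoderm markers, against -0.01 over all genes. Leaving out H1 control library 1 gave H1 TKO medians of -0.78 for fibroblast, -1.25 for formative and primed and -0.81 for neuroectoderm markers. They were 1.39 for trophectoderm, -0.74 for primitive endoderm and -1.45 for mesendoderm markers, against 0.03 over all genes.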

How the data were processed

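Counts per gene were analysed as deposited, in 1 table for the 4 Ubc9 libraries and 1 for the 4 H1 libraries. The authors made these counts with a toolset naming cutadapt, STAR, HTSeq and DESeq2, on mm10, per the submitters' processing notes. The role and version of each and the strand setting were not given in the sources used here. Of 24421 symbols, 23376 matched GENCODE M21 (GRCm38) by name and 670 by an older name.

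Libraries of each table were fitted alone, in R 4.3.3 with edgeR 4.0.16, using filterByExpr (minimum count 10, minimum total 15), TMM, quasi-likelihood F test, Benjamini-Hochberg adjustment over all genes, threshold 0.05. The SE is the log2 fold change over the root of F. The difference of effects used all 8 libraries. CPM uses TMM-scaled library sizes; CPM per kb divides by exonic length. The script was tested on simulated data.

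The members and lists were chosen with earlier results of these data known. Named genes were the members, the targeted genes, up to 3 genes per list, comparison and direction with the largest change among those called with at least 1 CPM, and the 2 genes most correlated with each member among those with at least 5 CPM. Some of the genes this rule names are not reported here. Alternatives were DESeq2 1.42.0, RLE factors, library totals, all 8 libraries in 1 fit, no filter, a replicate block, a 2-fold threshold and each library left out in turn, which takes a lone library's spread from the other group. Lists without a doubted library (Ubc9-depleted 1 or H1 control 1) and genes with at least 3 sites were added after seeing the data.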

Additional observations from a re-analysis of the deposited data

How the results depend on the processing

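The count of axis genes lower in Ubc9-depleted cells was 5, and was 3 with library totals alone, 3 with no filter, 1 with all 8 libraries in 1 fit, 0 at a 2-fold threshold, and 1 to 7 on leaving out a library. Over all genes, 2467 of 16499 were lower there in the main fit and 2360 of 23556 with no filter. With all 8 libraries in 1 fit 483 of 16974 were lower, and at a 2-fold threshold 168 of 16499. The smaller counts in that fit and at that threshold were thus not confined to the axis genes. Library totals alone moved the median log2 fold change of all genes from 0.06 to 0.25 in the Ubc9 comparison, with 3983 genes higher and 1084 lower in place of 3479 and 2467, and from -0.02 to -0.11 in the H1 comparison. Relative to that median the values of the 8 genes stayed within 0.02. In H1 TKO cells, leaving out a library gave 1 to 6 lower and 1 to 2 higher. For the difference of effects, RLE factors gave 2 lower genes, and leaving out a library gave 2 to 4 higher and 1 to 2 lower. The share of let-7 site genes lower in H1 TKO cells was 29.6% with at least 2 sites and 12.1% with at least 1. Of all genes 8.43% were lower there. The difference of effects changed sign for Igf2bp1 with RLE factors (-0.05); on leaving out a library it spanned -0.02 to 0.13 for Igf2bp1 and -0.01 to 0.34 for Trim71, neither of which was called. Of the other values of single genes, 214 kept direction and side of the threshold, 22 lost the call and 16 gained it; the causes were not tested.

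The replicate numbers are shared only as numbers: deviations of same-numbered libraries correlated by -0.00322 in the Ubc9 and 0.156 in the H1 libraries. With the replicate block, the axis genes called numbered 1 higher and 5 lower for Ubc9 depletion and 1 higher and 4 lower for the H1 TKO, the counts without it. With 2 libraries a group, a lost call does not show that a gene did not differ.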
